A study of Mus musculus with 6 samples.

Results

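Transcripts known from mast cells, basophils and eosinophils were followed in macrophages grown from C57BL/6 mouse bone marrow. The 10 genes were chosen by name as markers of these granulocytes and of their IgE, KIT and IL-33 receptors. Each matched 1 of the 52459 rows of the count table, and all 10 were among the 14857 genes with enough reads for a test. The marrow cells had been plated with GM-CSF, and RIP1i or its solvent DMSO was added overnight from day 7. There were 3 libraries of RIP1i cultures and 3 of DMSO cultures, and both groups share the strain, the tissue and the GM-CSF. RIP1i is given in the labels without a compound name or a dose. Nothing says that the replicates were separate cultures or animals, so every p-value reflects differences among these libraries, and those may be technical only.

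Mast cells, basophils and eosinophils are granulocytes that arise in the marrow from progenitors carrying the receptor KIT, under transcription factors that include GATA2. Mast cells and basophils bear the high-affinity IgE receptor, store proteases in their granules and respond to IL-33 through its receptor ST2, while eosinophils fill their granules with basic proteins and a peroxidase. GM-CSF drives marrow cells towards macrophages and dendritic cells, and its receptor shares a chain with those for IL-3 and IL-5, growth factors of basophils and eosinophils.

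No gene of the group differed between RIP1i and DMSO beyond the spread between libraries. Kit was far above the others and nearly constant, while the granule, protease and IgE receptor transcripts were low and varied up to 7.00-fold between single libraries. This variation ran across the treatments. DMSO replicate 2 was the lowest library for 8 of the 10 genes, as for 19.2% of all genes tested, and RIP1i replicate 3 was the lowest for Prss34 and Kit, as for 17.9% of all. The highest library was DMSO replicate 3 for 5 genes (11.4% of all), RIP1i replicate 2 for 3 genes (23.5% of all) and DMSO replicate 1 for the other two (15.2% of all).

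Library totals ran from 40729238 to 42378138 counts in RIP1i and from 40264902 to 44862310 counts in DMSO. All 9 stromal markers and all 8 macrophage markers were tested, so being tested does not identify a cell type. The macrophage markers had a summed CPM (counts scaled to library size) of 53622 to 64992 in RIP1i and 59894 to 67899 in DMSO. Most of that sum was Lyz2, at a mean of 47488 CPM. None of the 14857 genes had an adjusted p under 0.05 in edgeR's quasi-likelihood test of RIP1i against DMSO, a share of 0.0%.

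The stretches before the start sites of 4 of these genes are shown as examples. Each holds the letters that GATA factors are known to bind. The sequences are from RefSeq on GRCm38.p6, end 1 base before the annotated start, and run 5′ to 3′ along the gene. Capitals mark AGATAA or TGATAA, searched on both strands, so that TTATCT and TTATCA also count. The words differ in their first letter, so neither can stand on the other.
Cpa3 (chr3:20242182-20242431, minus strand): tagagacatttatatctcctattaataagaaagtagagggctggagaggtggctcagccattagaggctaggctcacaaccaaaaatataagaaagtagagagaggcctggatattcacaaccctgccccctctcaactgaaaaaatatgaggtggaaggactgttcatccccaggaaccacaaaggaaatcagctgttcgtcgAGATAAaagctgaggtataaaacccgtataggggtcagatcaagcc
Prss34 (chr17:25298144-25298393, plus strand): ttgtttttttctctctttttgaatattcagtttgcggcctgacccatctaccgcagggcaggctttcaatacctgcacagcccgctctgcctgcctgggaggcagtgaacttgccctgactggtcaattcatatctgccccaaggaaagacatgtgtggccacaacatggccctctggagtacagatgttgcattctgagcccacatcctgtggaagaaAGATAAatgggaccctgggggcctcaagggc
Ms4a2 (chr19:11623720-11623969, minus strand): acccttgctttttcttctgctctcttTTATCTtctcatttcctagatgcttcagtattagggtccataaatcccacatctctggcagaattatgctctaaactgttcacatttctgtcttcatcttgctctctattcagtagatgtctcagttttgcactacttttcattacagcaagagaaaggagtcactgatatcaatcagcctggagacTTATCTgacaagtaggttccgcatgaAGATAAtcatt
Fcer1a (chr1:173227230-173227479, minus strand): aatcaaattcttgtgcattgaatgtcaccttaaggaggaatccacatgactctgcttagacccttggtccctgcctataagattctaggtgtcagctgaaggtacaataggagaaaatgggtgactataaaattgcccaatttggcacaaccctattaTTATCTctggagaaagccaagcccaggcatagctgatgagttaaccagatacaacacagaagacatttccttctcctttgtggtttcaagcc
In Cpa3 the word begins 46 bases before the start and in Prss34 31 bases before it. Ms4a2 holds 3, beginning 224, 37 and 11 bases before the start, and Fcer1a holds 1, at 92 bases. Of the 9 genes of the group with a window in the table, 5 held the word. The fifth was Il1rl1, which is not shown, and Epx, Mcpt8, Kit and Gata2 did not hold it. Among all 27025 genes with such windows 18.8% held it. A match describes letters in the window and is not evidence of binding.

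Prg2 (chromosome 2, 84980461 to 84983632, plus strand, GRCm38) encodes major basic protein, the main protein of the eosinophil granule core. It had 275, 307 and 228 counts in RIP1i replicates 1 to 3 and 219, 69 and 462 counts in DMSO replicates 1 to 3. The RIP1i libraries lay close together, inside the wide span of the DMSO libraries. In CPM it averaged 6.54 ± 0.924 in RIP1i and 5.62 ± 4.29 in DMSO (SD, n = 3 each), a log2 fold change (RIP1i minus DMSO) of 0.21 with a 95% interval from -0.98 to 1.4 and an edgeR adjusted p of 0.950. The value hung on single DMSO libraries and on the method, at -0.22 without DMSO replicate 2, 0.96 without DMSO replicate 3 and 0.51 by limma-voom.

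Epx (chromosome 11, 87864000 to 87875536, minus strand) encodes eosinophil peroxidase. It had 78, 86 and 77 counts in RIP1i and 86, 48 and 152 counts in DMSO, again with the RIP1i libraries inside the DMSO span. The level was 1.95 ± 0.0918 CPM in RIP1i and 2.16 ± 1.10 CPM in DMSO (SD, n = 3 each). Its log2 fold change was -0.16, with an interval from -0.94 to 0.63, and 0.31 without DMSO replicate 3. The FPKM ratio of Prg2 to Epx was 11.6, 11.6 and 9.72 in the RIP1i libraries and 8.36, 4.64 and 9.93 in the DMSO libraries, so Prg2 was lowest relative to Epx in DMSO replicate 2.

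Cpa3 (chromosome 3, 20215620 to 20242181, minus strand) encodes carboxypeptidase A3, a granule protease of mast cells that basophils and their progenitors also express. It had 343, 482 and 258 counts in RIP1i and 468, 124 and 467 counts in DMSO. DMSO replicate 2 lay below every other library. The group levels were 8.73 ± 2.61 CPM in RIP1i and 7.98 ± 4.24 CPM in DMSO (SD, n = 3 each), with a log2 fold change of 0.12 and an interval from -0.87 to 1.12. Without DMSO replicate 2 it was -0.26, without RIP1i replicate 2 it was -0.13 and without DMSO replicate 1 it was 0.36.

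Prss34 (chromosome 17, 25298394 to 25300165, plus strand) encodes the serine protease mMCP-11 of mouse basophils and mast cells, and it varied most. It had 82, 210 and 33 counts in RIP1i and 248, 53 and 188 counts in DMSO. Each group held low and high libraries, with RIP1i replicate 3 at the bottom and DMSO replicate 1 at the top. The mean was 2.61 ± 2.15 CPM in RIP1i and 3.68 ± 2.17 CPM in DMSO (SD, n = 3 each). The log2 fold change of -0.50 had an interval from -2.07 to 1.06. It was -1.40 without RIP1i replicate 2, -0.0745 without RIP1i replicate 3 and never past the threshold.

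Mcpt8 (chromosome 14, 56082166 to 56085273, minus strand) encodes mMCP-8, a granzyme-like protease that marks mouse basophils. It had 30, 69 and 26 counts in RIP1i and 20, 12 and 65 counts in DMSO. RIP1i replicate 2 and DMSO replicate 3 stood above the other 4 libraries, and their exact 95% Poisson intervals, 53.7 to 87.3 and 50.2 to 82.8 counts, cleared the highest of the others, 20.2 to 42.8 counts in RIP1i replicate 1. Such intervals cover counting error only. The log2 fold change was 0.45, with an interval from -0.96 to 1.86, with -0.12 when RIP1i replicate 2 was left out and 1.41 when DMSO replicate 3 was. Mcpt8 belongs to a family of similar genes, and how reads matching several of them were counted is not given in the sources used here, so its counts may be shared.

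The proteases did not keep one proportion. The FPKM ratio of Cpa3 to Prss34 was 3.35, 1.84 and 6.26 in the RIP1i libraries and 1.51, 1.88 and 1.99 in the DMSO libraries. That of Cpa3 to Mcpt8 was 7.55, 4.59 and 6.56 in RIP1i and 15.4, 6.77 and 4.74 in DMSO. The Prss34 share was thus smallest in RIP1i replicate 3, and the Mcpt8 share in DMSO replicate 1.

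Fcer1a and Ms4a2 encode the IgE-binding alpha chain and the beta chain of the high-affinity IgE receptor, which signal with the gamma chain Fcer1g. Fcer1a (chromosome 1, 173221284 to 173227214, minus strand) had 8, 19 and 7 counts in RIP1i and 16, 6 and 24 counts in DMSO, the lowest of the group. The 6 counts of DMSO replicate 2 have an exact Poisson interval from 2.20 to 13.1, and the 24 counts of DMSO replicate 3 one from 15.4 to 35.7. Its log2 fold change was -0.35, with an interval from -1.60 to 0.89, with -0.94 when RIP1i replicate 2 was left out and 0.0817 when DMSO replicate 3 was.

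Ms4a2 (chromosome 19, 11615523 to 11623719, minus strand) had 32, 42 and 23 counts in RIP1i and 46, 19 and 54 counts in DMSO. The libraries fell in nearly the same order as for Fcer1a. Its log2 fold change was -0.21, with an interval from -1.06 to 0.64, with -0.51 when DMSO replicate 2 was left out and 0.0394 when DMSO replicate 3 was. On the FPKM scale, which allows levels of different genes to be compared per length, Ms4a2 to Fcer1a was 1.4, 0.80 and 1.18 in RIP1i and 1.03, 1.13 and 0.811 in DMSO, from FPKM values of only 2 decimals. Fcer1g, which macrophages also use with other Fc receptors, stood at 676 to 693 FPKM in RIP1i and 653 to 685 FPKM in DMSO, far above Fcer1a at 0.17 to 0.45 FPKM in RIP1i and 0.15 to 0.53 FPKM in DMSO.

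Kit (chromosome 5, 75574916 to 75656722, plus strand) encodes the receptor for stem cell factor, carried by mast cells and marrow progenitors. It had 6687, 7755 and 6515 counts in RIP1i and 8261, 6481 and 7375 counts in DMSO. The levels were 169 ± 13.7 CPM in RIP1i and 170 ± 13.7 CPM in DMSO (SD, n = 3 each), with full overlap. The log2 fold change was -0.0078, and its interval from -0.18 to 0.17 was the narrowest of the 10. The sign turned without RIP1i replicate 3, at 0.0381, and without DMSO replicate 1, at 0.0497.

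Il1rl1 (chromosome 1, 40429570 to 40465415, plus strand) encodes ST2, the IL-33 receptor chain of mast cells and basophils. It had 164, 171 and 168 counts in RIP1i and 191, 109 and 204 counts in DMSO. The RIP1i libraries were nearly equal, at 4.06 ± 0.0043 CPM, while the DMSO libraries were at 3.84 ± 0.981 CPM (SD, n = 3 each), with DMSO replicate 2 alone below the rest. Its log2 fold change was 0.0785, with an interval from -0.36 to 0.52, and -0.12 without DMSO replicate 2. The near equality of 3 RIP1i libraries is closer than counting error, since 164 counts alone have a Poisson interval from 140 to 191 (exact, 95%).

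Gata2 (chromosome 6, 88193891 to 88207032, plus strand) encodes a zinc finger transcription factor of progenitors, mast cells and basophils. It had 90, 142 and 108 counts in RIP1i and 143, 61 and 151 counts in DMSO. DMSO replicate 2 was lowest and RIP1i replicate 2 highest in CPM, so the groups overlapped. The log2 fold change was 0.0213, with an interval from -0.68 to 0.73, with -0.26 when DMSO replicate 2 was left out and -0.17 when RIP1i replicate 2 was.

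**Figure D1:**
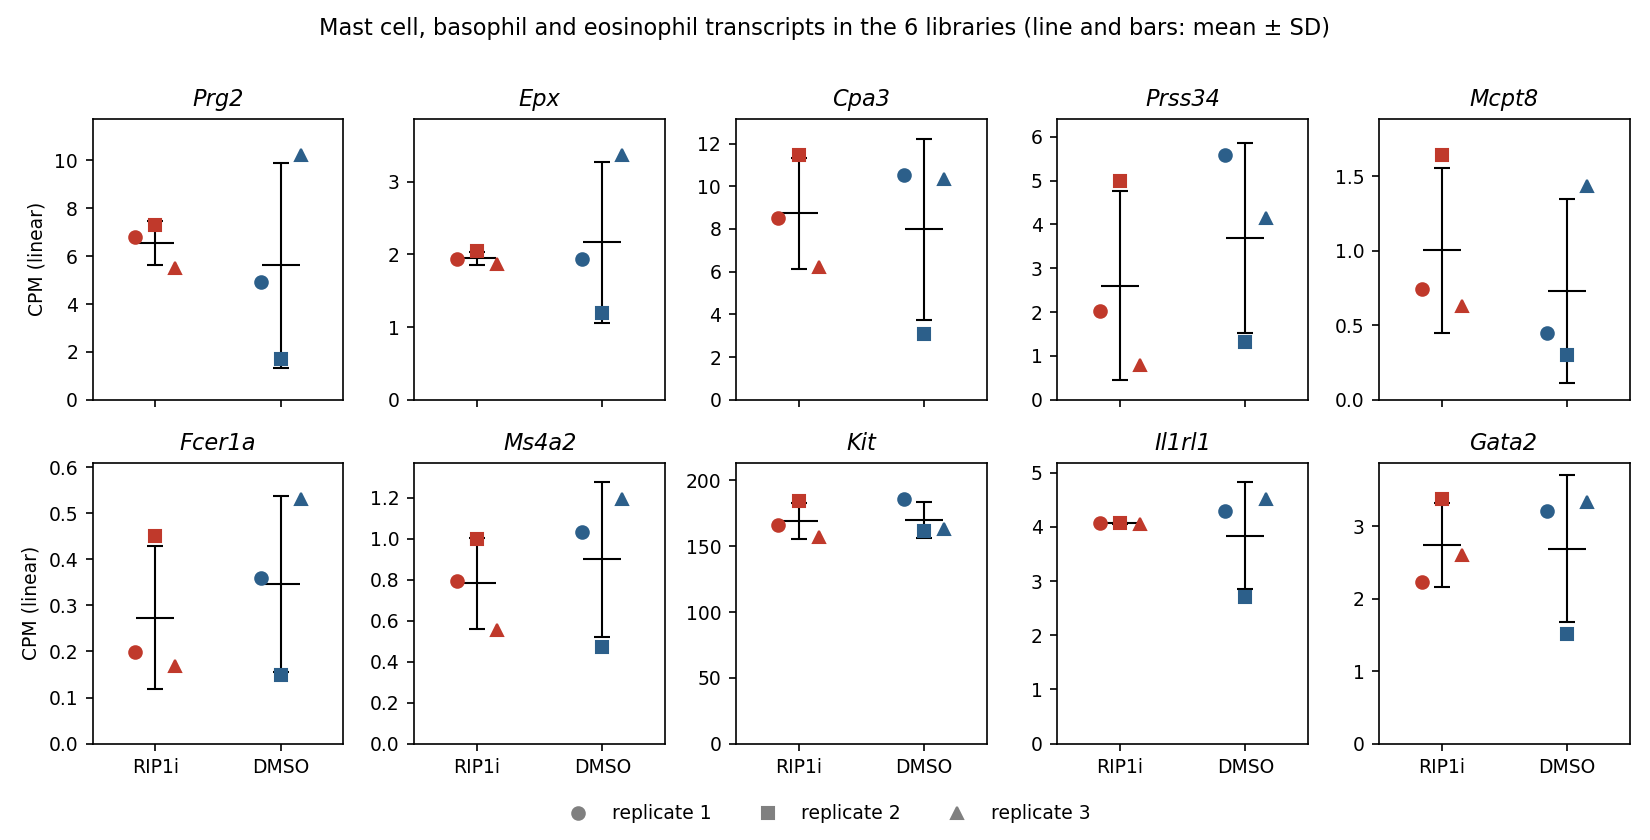
Each panel plots 1 gene in CPM on a linear axis from 0, with the 3 RIP1i libraries on the left and the 3 DMSO libraries on the right, marker shape for the replicate number, and the mean ± SD as a line with bars. Every pair of groups overlaps, and the square of DMSO replicate 2 is the lowest point in 8 panels.

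Ordered by mean FPKM over the 6 libraries, Kit came first at 19.0 ± 1.41 (SD, n = 6), followed by Prg2 at 7.24 ± 3.38, Cpa3 at 5.50 ± 2.10 and Prss34 at 2.59 ± 1.66. The other 6 lay below 1. These were Mcpt8 at 0.867 ± 0.550, Epx at 0.748 ± 0.260, Il1rl1 at 0.572 ± 0.0937, Gata2 at 0.502 ± 0.139, Fcer1a at 0.310 ± 0.160 and Ms4a2 at 0.302 ± 0.103 FPKM. The step from Kit to Prg2 exceeded the spread of both genes, and that from Prss34 to Mcpt8 just exceeded the SD of Prss34. Prg2 and Cpa3 did not differ beyond their SD, nor did neighbours from Mcpt8 to Gata2 or Fcer1a and Ms4a2, apart from Epx and Il1rl1. The step from Epx to Il1rl1 exceeded the SD of Il1rl1 but not that of Epx. Epx was above Il1rl1 in each library, at 0.44 to 1.23 FPKM against 0.39 to 0.66 FPKM. These SDs leave aside that the genes were measured in the same libraries. FPKM values under 1 are deposited with 2 decimals, so the lowest levels are coarse.

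By edgeR's quasi-likelihood test 0 of the 10 genes had an adjusted p under 0.05, against 0.0% of all genes tested, and 0 of the 10 had an unadjusted p under 0.05, against 6.21% of all genes tested. DESeq2 and limma-voom also called 0 of the 10, and DESeq2 called 0.0135% of all genes. The adjusted p values ran from 0.917 to 0.992. In fitted sign 5 genes were positive and 5 negative, with a median log2 fold change of 0.0068, beside a median of 0.0025 over all genes tested. No gene of the group had groups that did not overlap, whereas 13.5% of all genes tested did. A missed threshold does not show equal levels: only Kit, Il1rl1, Gata2 and Epx had intervals within a 2-fold difference in either direction, and a 2-fold difference in either direction lay inside the interval of Prss34.

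**Figure D2:**
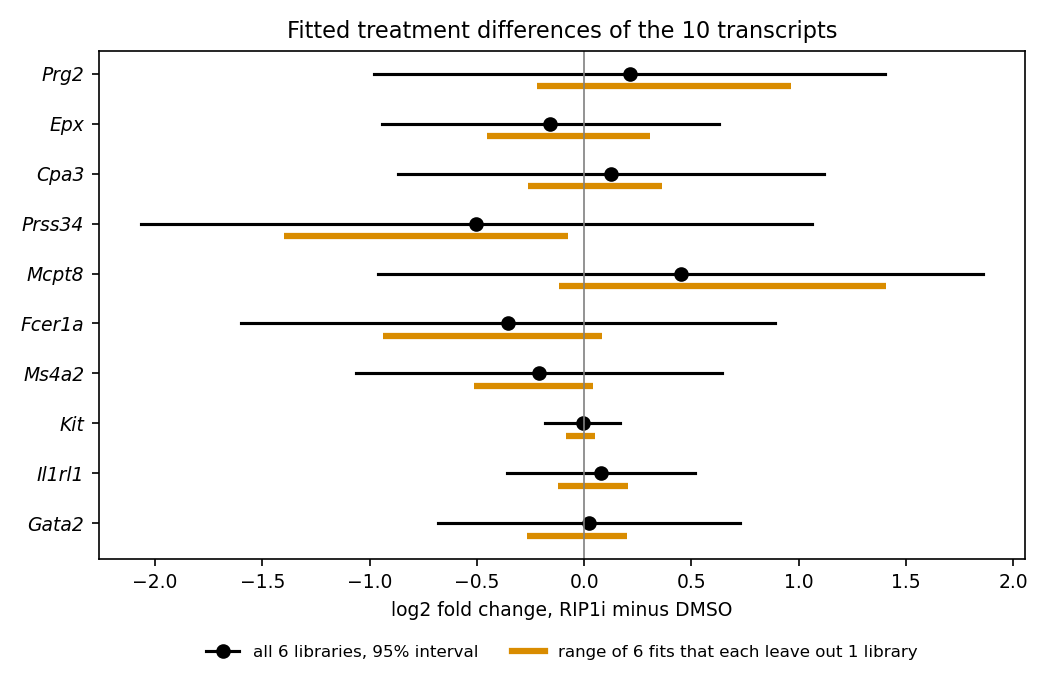
The horizontal axis is the log2 fold change of RIP1i minus DMSO for each gene. Black points and lines are the estimate and 95% interval from all 6 libraries, and orange bars span the 6 fits that each leave out 1 library. Every black interval contains 0, and only the orange bar of Prss34 stays on one side of it.

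The spread between libraries of the same treatment was wide for a part of the group. The biological coefficient of variation fitted by edgeR, which is the relative spread beyond counting error within a treatment, was 56.9% for Prss34, 50.2% for Mcpt8, 44.0% for Prg2, 37.2% for Fcer1a and 36.8% for Cpa3. For these 5 it was over 1.5 times the trend for genes of their abundance, as for 6.29% of all genes tested. Gata2, Epx and Ms4a2 lay between 26.4% and 29.2%. Il1rl1, at 16.9% beside a trend of 16.6%, and Kit, at 7.38% beside 6.74%, stood close to the trend. Over the 6 libraries the largest to smallest CPM ratio was 7.00 for Prss34, 5.95 for Prg2, 5.49 for Mcpt8 and 3.71 for Cpa3, but 1.66 for Il1rl1 and 1.18 for Kit.

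The genes tended to vary together over the libraries, but pairs of other genes with a like spread were not examined for comparison. All 45 pairs of the 10 genes had a positive Pearson correlation of log2 CPM over the 6 libraries, with a median r of 0.785 and a range from 0.0818 to 0.938, and the median Spearman rho was 0.714. Of the 45 exact permutation p values for r, 16 were under 0.05, and 0 were after Benjamini-Hochberg adjustment over the 45 pairs, where the smallest was 0.0833. With group means removed, all 45 stayed positive and the median r was 0.839. Genes measured in the same libraries share depth and composition, and in bulk RNA fewer cells of a type and less RNA per cell cannot be told apart.

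The closest pair was the IgE receptor chains Fcer1a and Ms4a2, with r = 0.938 and rho = 0.943 (n = 6, exact permutation p = 0.0056 and 0.0167, adjusted 0.0833 and 0.125), and r = 0.942 without the 2 libraries farthest from the median of Ms4a2. The eosinophil pair Prg2 and Epx had r = 0.914 and rho = 0.943 (n = 6, exact permutation p = 0.0139 and 0.0167, adjusted 0.0833 and 0.125), and r = 0.656 without the 2 libraries farthest from the median of Prg2. Cpa3 and Ms4a2 had r = 0.915 and rho = 0.771 (n = 6, exact permutation p = 0.0167 and 0.103, adjusted 0.0833 and 0.210), and r = 0.700 without the 2 libraries farthest from the median of Cpa3. Kit and the protease gene Prss34 had r = 0.826 and rho = 0.943 (n = 6, exact permutation p = 0.0167 for both, adjusted 0.0833 and 0.125). Without the 2 libraries farthest from the median of Prss34, r was 0.694. Kit and Prg2 had r = 0.190 and rho = 0.143 (n = 6, exact permutation p = 0.858 and 0.803, adjusted 0.858 and 0.803). Without the 2 libraries farthest from the median of Prg2, r was 0.0197. Kit spanned only 1.18-fold in CPM over the libraries. Over so narrow a span, r cannot show which genes Kit followed.

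DMSO replicate 2 carried part of this pattern. Without it the median r over the 45 pairs was 0.563, with 42 pairs positive and all 3 negative pairs involving Kit. The correlation of Prg2 with Epx was then 0.870, of Fcer1a with Ms4a2 0.926 and of Cpa3 with Ms4a2 0.932. Cpa3 with Gata2, at 0.927 over all libraries, was 0.704. Prg2 and Cpa3 were at r = 0.884 over 6 libraries (rho = 0.543, n = 6, exact permutation p = 0.0833 and 0.297, adjusted 0.147 and 0.352), and r = 0.273 without DMSO replicates 2 and 3, the farthest from the median of Prg2. For this pair, r was 0.366 without DMSO replicate 2 alone and 0.895 without DMSO replicate 3 alone. The relation of Prg2 with Cpa3 therefore rested mainly on DMSO replicate 2. Prg2 and Mcpt8, by contrast, were at r = 0.859 over 6 libraries (rho = 0.943, n = 6, exact permutation p = 0.0139 and 0.0167, adjusted 0.0833 and 0.125), at 0.848 without DMSO replicate 2 and at 0.883 without DMSO replicates 2 and 3.

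With the 2 libraries farthest from the median of the first gene of each pair left out, the median r was 0.579 and 40 of the 45 pairs were positive. The 5 negative pairs were not limited to Kit. Prg2 and Il1rl1, with r = 0.933 and rho = 0.600 over all libraries (n = 6, exact permutation p = 0.0722 and 0.242, adjusted 0.147 and 0.340), had r = -0.743 without DMSO replicates 2 and 3. Without the same libraries, Prg2 and Gata2 had r = -0.14, against 0.835 over all 6 (rho = 0.714, exact permutation p = 0.114 and 0.136, adjusted 0.171 and 0.245). Epx and Il1rl1 had r = -0.0588, against 0.849 over all 6 (rho = 0.771, exact permutation p = 0.0333 and 0.103, adjusted 0.117 and 0.210). These 3 relations were not seen without both libraries. Without DMSO replicate 2 alone, r was 0.497, 0.274 and 0.846 in the same order, and without DMSO replicate 3 alone 0.928, 0.805 and 0.979. With both left out, Il1rl1 lay at 4.06 to 4.29 CPM in the remaining libraries. Over so narrow a span, r cannot show whether a relation with Il1rl1 held. The other negative pairs were Mcpt8 with Kit at -0.558 and Kit with Gata2 at -0.0117.

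**Figure D3:**
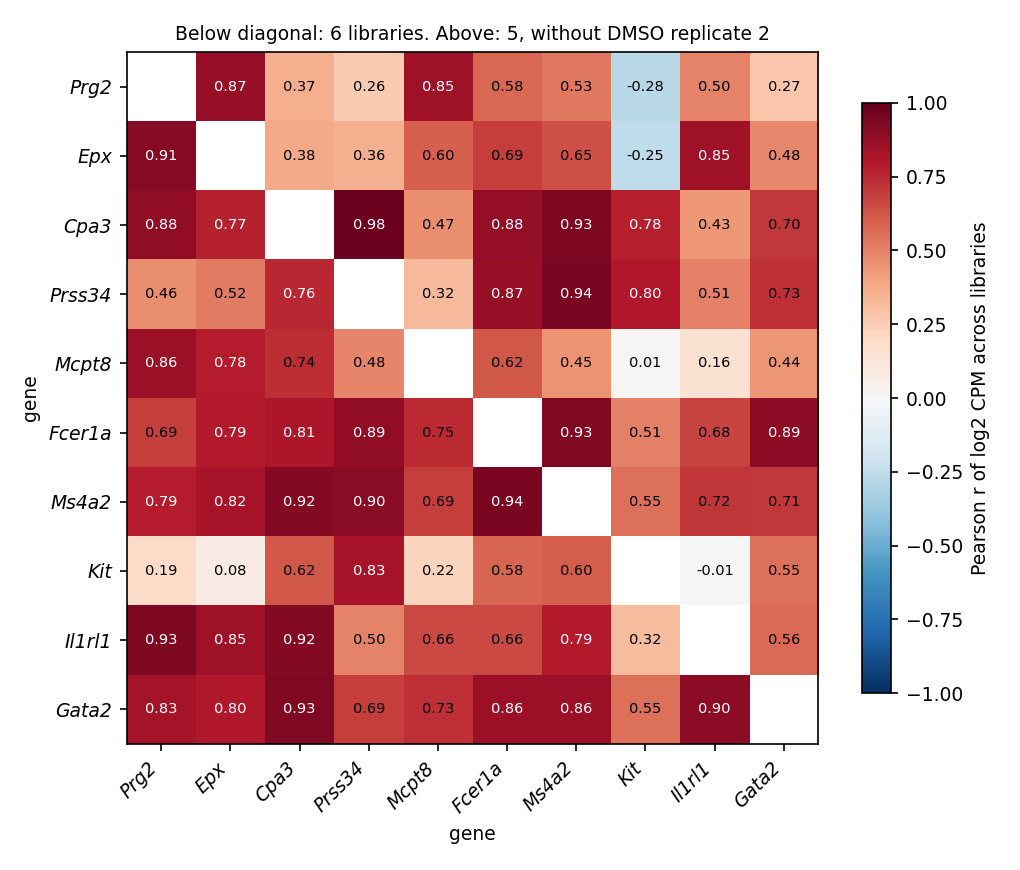
The matrix gives Pearson r of log2 CPM for every pair of the 10 genes, over 6 libraries below the diagonal and over the 5 without DMSO replicate 2 above it, with red for positive and blue for negative values. Every square below the diagonal is positive, and the negative squares above it are in the row or column of Kit.

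Markers of other cell types moved over the same libraries. The neutrophil markers, 8 of 9 tested, were lowest in DMSO replicate 2 for 6 genes and in RIP1i replicate 3 for the other 2. Their summed CPM was 1849, 2085 and 1552 in RIP1i and 1830, 1534 and 2086 in DMSO. Most of it was Mmp8, at a mean of 1380 CPM, which varied little. S100a9, the next highest, ran from 88.0 to 263 CPM in RIP1i and from 100 to 255 CPM in DMSO. The stromal markers, 9 of 9 tested, had 8 of the 9 highest in DMSO replicate 2 and summed to 209, 70.8 and 160 CPM in RIP1i and 182, 321 and 75.7 CPM in DMSO. Progenitor markers, 7 of 7 tested, summed to 16.8, 20.2 and 13.4 CPM in RIP1i and 14.7, 12.9 and 17.5 CPM in DMSO. By gene, 5 of the 7 were lowest in RIP1i replicate 3 and 1 in DMSO replicate 2, beside 17.9% and 19.2% of all genes tested. The part of the cells behind these markers in the variation of the mast cell, basophil and eosinophil genes was not tested. Among the 3415 genes whose log2 CPM had an SD of at least 0.25 over the libraries, 545 were lowest in DMSO replicate 2.

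**Figure D4:**
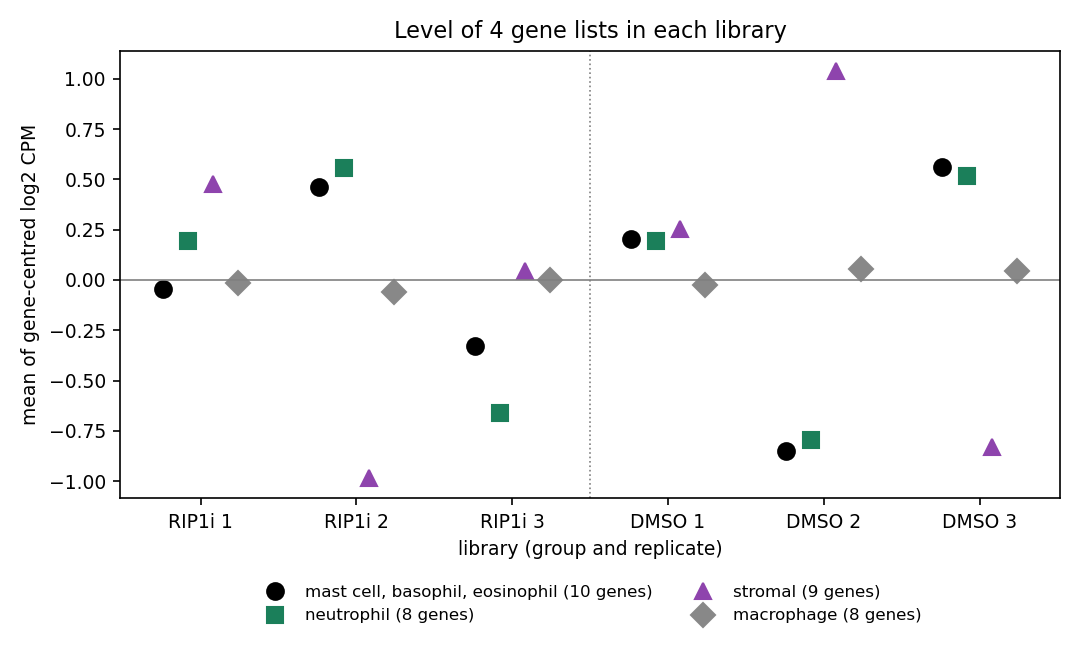
The vertical axis is the mean, over the tested genes of a list, of log2 CPM as a difference from each gene's own average, shown for each library with RIP1i on the left. The 10 mast cell, basophil and eosinophil genes run from 0.56 in DMSO replicate 3 to -0.85 in DMSO replicate 2. They lie near the neutrophil markers except in RIP1i replicate 1 (-0.0439 against 0.194) and RIP1i replicate 3 (-0.33 against -0.66). They are opposite in sign to the stromal markers in every library but DMSO replicate 1 (0.20 against 0.26). Macrophage markers stay between -0.062 and 0.054.

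The T and NK cell markers summed to 2.59 to 2.63 CPM in RIP1i and 2.47 to 2.99 CPM in DMSO, with 3 of 7 tested. B and plasma cell markers summed to 0.645 to 0.869 CPM in RIP1i and 0.685 to 1.145 CPM in DMSO, with 1 of 6 tested, and erythroid markers to 0.217 to 0.261 CPM in RIP1i and 0.199 to 0.243 CPM in DMSO, with 0 of 5 tested. Megakaryocyte markers, 3 of 5 tested, summed to 23.3 to 24.7 CPM in RIP1i and 21.0 to 24.4 CPM in DMSO. Most of this was Pf4, at a mean of 16.3 CPM. The dendritic cell list, 7 of 8 tested, summed to 1319 to 1462 CPM in RIP1i and 1211 to 1370 CPM in DMSO. Most of it was Itgax at a mean of 1280 CPM, while Flt3 was at 0.730 CPM. The innate lymphoid list, 2 of 7 tested, summed to 288 to 352 CPM in RIP1i and 264 to 279 CPM in DMSO. Most of it was Il7r at a mean of 261 CPM and Rora at 32.3 CPM. No marker of any of these lists passed the edgeR test.

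Of 17 further mast cell genes, 16 matched a row, 11 had at least 1 count and 5 were tested, with 2 fitted higher, 3 lower and none called, at a median log2 fold change of -0.0257. The highest were Mitf, a transcription factor that macrophages share with mast cells, at 77.4 to 93.9 CPM in RIP1i and 78.2 to 88.3 CPM in DMSO, and Hpgds, a prostaglandin D synthase, at 75.4 to 79.5 CPM in RIP1i and 70.1 to 78.4 CPM in DMSO. Hdc, which makes histamine, was at 4.76, 4.54 and 6.23 CPM in RIP1i and 6.77, 3.96 and 6.28 CPM in DMSO, lowest in DMSO replicate 2. Slc18a2, the vesicle transporter that loads histamine, was at 0.694, 0.760 and 0.869 CPM in RIP1i and 1.17, 0.448 and 1.06 CPM in DMSO, again lowest there. Of the 5 tested genes only these 2 were lowest in that library, beside 19.2% of all genes tested. Mitf was lowest in RIP1i replicate 2, Hpgds in DMSO replicate 3 and Adora3, an adenosine receptor gene, in RIP1i replicate 3. The protease genes of connective tissue mast cells were nearly missing. The tryptase gene Tpsb2 had 5 to 10 counts in RIP1i and 5 to 8 in DMSO, the chymase gene Cma1 had 0 counts in every RIP1i library and 0 to 3 in DMSO, and the tryptase gene Tpsab1 and the chymase gene Mcpt4 had 0 in every library. Also at 0 in every library were Mrgprb1 and Mrgprb2, which encode G protein-coupled receptors, and Rgs13, a regulator of G protein signalling. All of these but Tpsb2 were named after their values were seen. A count of 0 allows up to 3 counts per library, by a 1-sided 95% Poisson limit, whereas the Poisson intervals given above are 2-sided.

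Of 14 further basophil genes, 13 matched a row and 7 were tested, with 5 fitted higher, 2 lower, none called and a median log2 fold change of 0.0873. Cd200r3, an activating receptor of basophils and mast cells, had 164, 145 and 177 counts in RIP1i and 155, 119 and 192 counts in DMSO. Cyp11a1, a steroid-synthesis enzyme, was at 9.87, 14.8 and 7.99 CPM in RIP1i and 11.1, 7.89 and 11.7 CPM in DMSO, in an order close to that of Cpa3. Ifitm1 stood at 83.2 to 177 CPM in RIP1i and 91.0 to 148 CPM in DMSO, Csf1 at 61.7 to 86.8 CPM in RIP1i and 69.8 to 77.5 CPM in DMSO, and the IL-3 receptor gene Il3ra at 21.7 to 23.0 CPM in RIP1i and 20.8 to 23.7 CPM in DMSO. These 3 are not limited to basophils. The cytokine gene Il4, named after its values were seen, had 4, 6 and 1 counts in RIP1i and 10, 4 and 8 counts in DMSO.

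Of 12 further eosinophil genes, all matched a row and 11 were tested, with 5 fitted higher, 6 lower and none called, at a median log2 fold change of -0.0280. The highest were Ear6, Ear2 and Siglecf, of which Ear2 and Siglecf are also expressed by alveolar macrophages, cells that depend on GM-CSF. Ear2, a ribonuclease gene, was at 86.1, 99.8 and 83.8 CPM in RIP1i and 103, 99.5 and 132 CPM in DMSO, a log2 fold change of -0.31 ± 0.12 (SE) with an edgeR adjusted p of 0.777. Ear genes are near-identical copies, so their counts may be shared. Ear6 was lowest in RIP1i replicate 2 and highest in RIP1i replicate 3. Prg3, the homologue of Prg2, had 20, 16 and 14 counts in RIP1i and 9, 5 and 27 counts in DMSO, with the same lowest and highest library as Prg2. Of the 11 tested genes 3 were lowest in DMSO replicate 2, beside 19.2% of all genes tested. The eosinophil receptors were scarce, with Ccr3 at 9 to 14 counts in RIP1i and 10 to 18 in DMSO and Il5ra, the IL-5 receptor chain, at 0 to 1 counts in RIP1i and 0 to 3 in DMSO. Prg3, Ccr3 and Il5ra were named after their values were seen.

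The list of ligands, shared chains and signalling genes had 17 of 22 tested, with 12 fitted higher, 5 lower, none called, 2 at an unadjusted p under 0.05 and a median log2 fold change of 0.0389. Il1rap, the partner chain of ST2, was at 26.4, 33.4 and 28.2 CPM in RIP1i and 25.5, 21.6 and 25.8 CPM in DMSO, so the groups did not overlap. Its log2 fold change was 0.27 ± 0.10 (SE), with an edgeR adjusted p of 0.777. Il7r had 0.24 ± 0.0741 and the same adjusted p. Csf2rb, the chain shared by the GM-CSF, IL-3 and IL-5 receptors, stood at 1474 to 1812 CPM in RIP1i and 1383 to 1605 CPM in DMSO. Among the ligands, Kitl, which encodes stem cell factor, had 81, 30 and 117 counts in RIP1i and 88, 99 and 70 counts in DMSO, lowest in RIP1i replicate 2, where Kit was highest among the RIP1i libraries. Il33 had 0 to 4 counts in RIP1i and 3 to 6 in DMSO, and Il3 had 0 in every library. The ligands were named after their values were seen.

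The list of lineage transcription factors and progenitor genes had 26 of 27 tested, with 13 fitted higher, 13 lower, none called, 3 at an unadjusted p under 0.05 and a median log2 fold change of 0.0016. The most abundant, such as Cebpb and Spi1, belong to macrophages as well, with Spi1 at 267 to 286 CPM in RIP1i and 263 to 276 CPM in DMSO. Hhex, a homeobox gene, had a log2 fold change of -0.17 ± 0.0570 (SE) and Cd34, a progenitor marker, 0.23 ± 0.0946 (SE), both with an edgeR adjusted p of 0.777. Gata1, which works with GATA2 in mast cell and eosinophil development, had 8, 12 and 10 counts in RIP1i and 10, 13 and 18 counts in DMSO. Its lowest library in CPM was RIP1i replicate 1, while that of Gata2 was DMSO replicate 2. Gata1 was named after its values were seen.

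Outside the group, the genes whose log2 CPM followed the mean profile of the 10 most closely were sought among 1158 genes with at least 1 CPM and an SD of at least 0.25 over the 6 libraries. The closest was Stfa3, a stefin gene of neutrophils, with r = 0.977. Then came Gfi1, with r = 0.976, which encodes a transcriptional repressor that acts in granulocyte development. Ms4a3, a marker of granulocyte and monocyte progenitors, had r = 0.970. The unnamed transcripts A630072L19Rik and Gm10524 had r = 0.969 and 0.968. Gfi1 was at 1.66, 2.37 and 1.135 CPM in RIP1i and 1.91, 0.921 and 2.23 CPM in DMSO. By single genes, the closest were Mefv to Prg2 (r = 0.971), Phtf1os to Cpa3 (r = 0.969), A430106G13Rik to Il1rl1 (r = 0.952) and Fam161a to Kit (r = 0.912), each over 6 libraries. These genes were picked as the closest of 1158 over only 6 libraries, so the values are a description with no test.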

How the data were processed

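The authors deposited raw read counts per gene, and FPKM values of the same table rows. The tools listed in the submitters' processing notes are STAR 2.5.3a, featureCounts, Subread 1.4.6-p3, CASAVA 1.8.4 and DESeq2 1.14.0, and the build listed there is mm10. For annotation, strand setting and multiply matching reads, the sources used here state nothing. The deposited FPKM values follow the counts with a library factor, which differed from the inverse size factor by at most 0.000145% over 2411 genes. They are used for levels, for ratios between genes, and in alternative fits and correlations. The main tests used the counts.

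The members and lists were chosen with earlier results of these data known. Counts were filtered with filterByExpr (minimum count 10, minimum total 15) and tested with edgeR 4.0.16 (R 4.3.3) by its quasi-likelihood method (TMM, treatment as the only term, 2-sided, Benjamini-Hochberg over 14857 genes, threshold 0.05). CPM use the TMM factors, and log2 CPM a prior count of 2. Correlations used exact 2-sided permutation tests. On simulated counts for this comparison (14653 genes tested), 83 of 100 genes changed 2-fold and 97 of 100 changed 4-fold were recovered. There were 6 false calls. The simulation gave each gene the trend spread for its abundance. For 5 of the 10 members the fitted spread was over 1.5 times that trend, so these shares do not apply to them. Named genes were all 10 members, and in each list up to 6 genes of highest CPM and the 2 of smallest p. Genes outside this rule are identified as named after their values were seen. Alternatives were other scalings, filters and tests (DESeq2 1.42.0, limma 3.58.1), the replicate number as a block, and leaving out each library. Limma was also fitted to log2 FPKM, with 1 or 0.1 added before the logarithm. Replicates of a group differed by more than sampling noise in every pair (chi-square per degree of freedom of at least 12.4). Gene positions are from GENCODE M21 on GRCm38, the assembly named mm10. No annotated exon of another gene overlapped those of the 10 genes.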

Additional observations from a re-analysis of the deposited data

How the results depend on the processing

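No setting called any of the 10 genes, and none but DESeq2, with 2 genes outside the group, called any gene at all. Among 88 fold changes of the group under other scalings, filters, units, tests or the block, all kept their sign. For all genes except Prss34, however, at least 1 of them differed by over 1.5 times in size. They ran from 0.20 to 0.54 for Prg2, -0.17 to -0.0447 for Epx, 0.11 to 0.27 for Cpa3, -0.70 to -0.40 for Prss34, 0.23 to 0.63 for Mcpt8, -0.22 to -0.0446 for Ms4a2, -0.36 to -0.0777 for Fcer1a, -0.0188 to -0.0078 for Kit, 0.0095 to 0.0702 for Gata2 and 0.0319 to 0.11 for Il1rl1. For Epx, Prss34, Mcpt8, Ms4a2, Fcer1a and Il1rl1 the smallest size came from a fit on log2 FPKM. The cause of these differences was not tested. The median over the 10 genes, 0.0068, was -0.0046 under upper-quartile scaling, and -0.26 without DMSO replicate 2 to 0.20 without DMSO replicate 3. Of 60 fold changes that each leave out 1 library, 12 turned. Their ranges were -0.22 to 0.96 for Prg2, -0.45 to 0.31 for Epx, -0.26 to 0.36 for Cpa3, -1.40 to -0.0745 for Prss34, -0.12 to 1.41 for Mcpt8, -0.51 to 0.0394 for Ms4a2, -0.94 to 0.0817 for Fcer1a, -0.0840 to 0.0497 for Kit, -0.26 to 0.20 for Gata2 and -0.12 to 0.21 for Il1rl1. Without DMSO replicate 3, Prg2 and Mcpt8 had an unadjusted p of 0.0438 and 0.0288 in edgeR and an adjusted p of 0.772 for both. The median r over the pairs was 0.563 to 0.836 with 1 library left out and 0.780 to 0.787 with another unit, scaling or prior count. No pair passed the adjusted threshold under the other unit, scaling or prior count, and pairs were not tested with a library left out. The stricter filter left 8 of the 10 genes.

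Deviations of same-numbered libraries from their group means correlated at 0.0058, -0.53 and -0.48 over genes. Across different numbers r ran from -0.31 for RIP1i replicate 1 with DMSO replicate 3 to 0.60 for RIP1i replicate 2 with DMSO replicate 3. Libraries of the same number were thus not the most alike, but these values cannot show whether libraries were prepared in pairs. With the replicate block 0 genes and 0 members were called, and 413 genes had an unadjusted p under 0.05, against 923 without it. Low counts, down to 6 for Fcer1a, limit the precision of the rarest transcripts.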
